A study of Mus musculus with 6 samples.

Results

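Macrophage gene expression was examined in CT26 tumors through 37 genes that mark macrophages in general or one of their activation states. They were taken by name from a list and picked out of the 23557 genes measured. No rule used their values, but the list was chosen with earlier results of these data known. The tumors grew from CT26 cells, a murine colorectal carcinoma line from BALB/c mice, of which 500000 were injected under the skin of the right flank of 7-week-old female BALB/c mice. Control mice (3 tumors) received NaCl and treated mice (3 tumors) received H89 at 10 mg/kg in NaCl, both by intraperitoneal injection, H89 2 times a week, and all 6 tumors were removed on day 14 and frozen. H89 is a small-molecule inhibitor of protein kinase A that also inhibits other kinases. Whole tumors were sequenced, so each value adds up the tumor cells, the immune cells and the stroma of 1 tumor, and fewer cells of a type cannot be told apart from less RNA per cell.

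Macrophages are phagocytes that arise from embryonic precursors or from blood monocytes, and they live on signaling through CSF1R. Interferon-gamma, the main product of type 1 T cells and NK cells, drives them to a microbicidal state with the nitric oxide synthase NOS2 and the activating Fc receptors for IgG, while interleukin-4 drives them to an alternatively activated state with arginase 1 and the mannose receptor MRC1. In tumors both kinds of genes are often found side by side, together with lipid-handling and osteopontin-rich states. The 37 genes fell into 8 role groups, which were pan-macrophage identity (14 genes), other Fc gamma receptors (2), interferon-polarized (3), alternatively activated (5), scavenger and pattern receptors (3), tissue-resident (4), lipid-associated (4) and CSF1R ligands (2).

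Deposited estimated counts summed to between 27067349 and 31958793 per tumor. Levels are given as CPM, the estimated counts of a gene per 1000000 of its tumor's total. Fold changes are log2 values of H89 against NaCl from edgeR's quasi-likelihood test with TMM normalization, which was run on 13118 genes (mean over the 6 tumors not below 0.5 CPM), and adjusted p-values are Benjamini-Hochberg values over all of those genes. A gene is said to have risen or fallen where this adjusted p was under 0.05. H89 tumor 1 stood apart in its skeletal muscle genes, with a summed 18.1 CPM against 0.932 to 2.24 CPM in the other 5 tumors, and in its adipocyte genes, with 4.18 CPM against 0.578 to 0.893 CPM. Summed fibroblast genes were higher in every H89 tumor (2961 to 3512 CPM) than in any NaCl tumor (2435 to 2593 CPM).

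The tumors expressed macrophage genes at high levels, and their levels in H89 tumors did not differ from those in NaCl tumors in 1 direction. Of the 37 genes, 35 passed the filter on low values. Marco, a scavenger receptor of resident macrophages, was at 0 in all 6 tumors, and Chil3, the chitinase-like protein Ym1, had at most 27 estimated counts. Of the 35 genes tested, 22 had a positive and 13 a negative log2 fold change, and their median was 0.09 against 0.004 over all genes tested. Cd84 alone rose at the adjusted threshold, and 1 of 35 compares with 0.861% of all genes tested that rose. No member fell at that threshold, where 0.724% of all genes fell and 1.59% were called in either direction. At an unadjusted p under 0.05, 4 members were higher (Cd84, Aif1, Ms4a7 and Fcgr1) and 3 were lower (Pf4, Clec4n and Spp1), against 13.1% and 11.9% of all genes tested, shares close to those of the members. The 4 became 1 without H89 tumor 3 and 2 without H89 tumor 1 or NaCl tumor 3, and the 3 became 5 without H89 tumor 3. The plot of fold changes by role group shows where these genes sit.

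**Figure D1:**
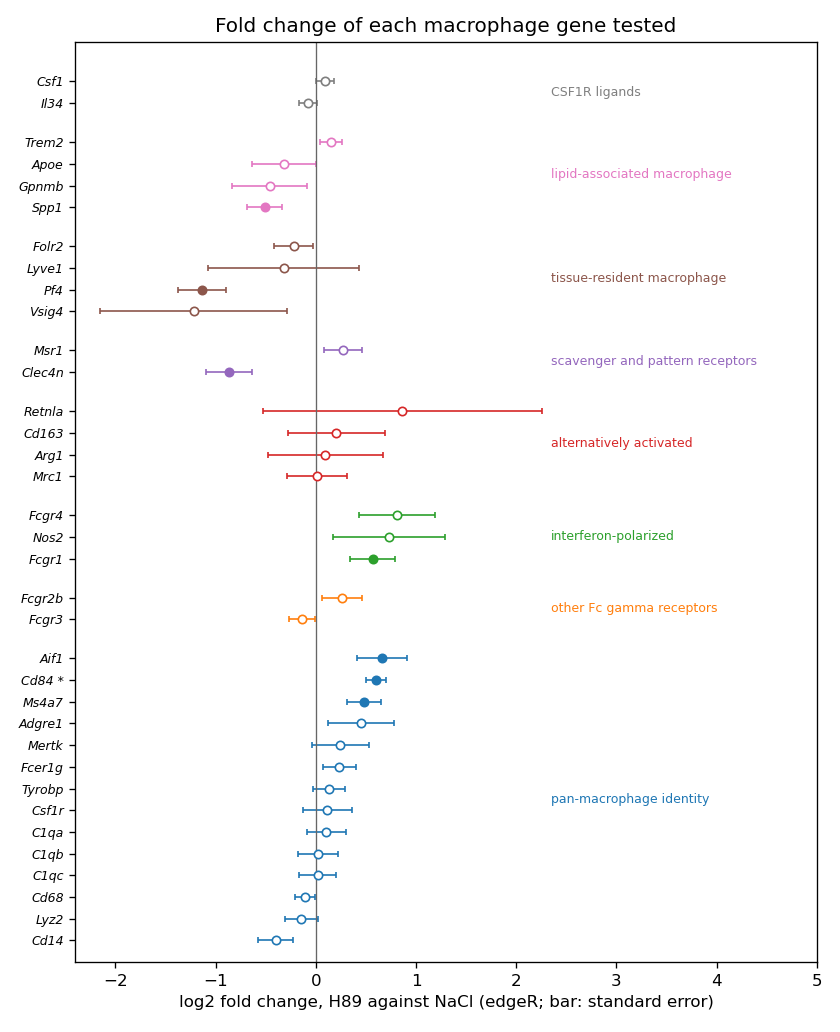
Log2 fold change of H89 against NaCl tumors (horizontal axis) for the 35 macrophage genes tested, by role group; points are edgeR estimates from 3 tumors per group, bars are standard errors, filled points have an unadjusted p under 0.05, and the asterisk marks a Benjamini-Hochberg adjusted p under 0.05. All 3 interferon-polarized genes lie to the right of 0 and all 4 tissue-resident genes to the left of it, and Cd84 carries the asterisk.

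Levels per kilobase of transcript, which allow genes to be compared, ran over a wide range. Osteopontin (Spp1) had the highest level, with means of 2488 CPM per kb in NaCl and 1843 CPM per kb in H89 tumors. It was followed by lysozyme (Lyz2) at 852 and 809 CPM per kb, and by C1qa at 365 and 410.3 CPM per kb. Fcgr3 (78.9 and 75.1 CPM per kb) and Arg1 (59.0 and 67.6 CPM per kb) lay in the middle of the range. Nos2 stood near its low end at 2.08 and 3.70 CPM per kb, and Vsig4 was the lowest gene tested, at 1.15 and 0.503 CPM per kb.

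**Figure D2:**
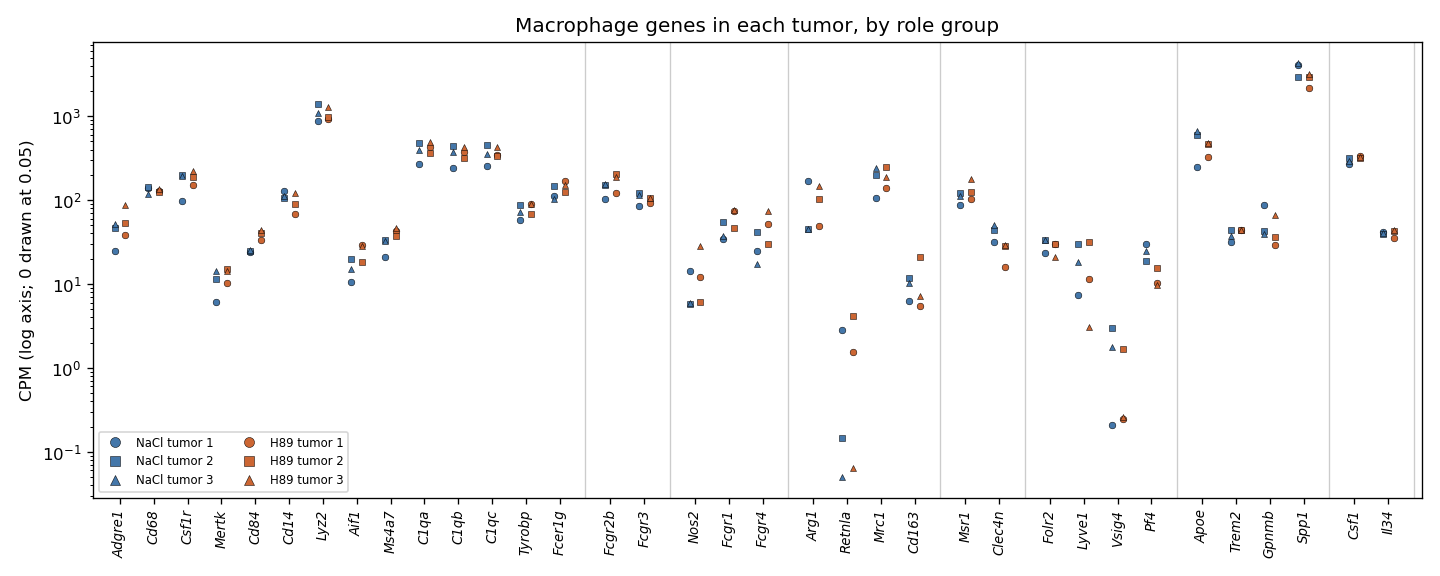
CPM (vertical axis, log scale, with the single 0 drawn at 0.05) of the 35 macrophage genes tested in each of the 6 tumors, with NaCl tumors in blue on the left and H89 tumors in orange on the right of each gene and a marker shape for each tumor number. Groups of genes are separated by vertical lines; NaCl tumor 1 is the lowest tumor for most of the pan-macrophage genes on the left, and the spread between tumors is widest for Retnla, Vsig4 and Lyve1.

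The pan-macrophage genes were read together for the overall macrophage signal, and neither their sum nor their mean separated the groups. Their summed level was 2273 to 3565 CPM in NaCl tumors and 2755 to 3566 CPM in H89 tumors. Lyz2, C1qa, C1qb and C1qc made up most of this sum, with means of 1122, 380, 352 and 352 CPM in NaCl tumors. The sum therefore says little about the weaker genes, such as Cd84, Ms4a7 and Aif1. The mean log2 level of the 14 genes, in which each gene weighs alike, also overlapped. It was 6.22 to 6.81 in NaCl tumors and 6.70 to 7.04 in H89 tumors. The median log2 fold change of the 14 genes was 0.12, with 11 positive and 3 negative values (Lyz2 turned positive under quantile normalization), and 3 of the 14 were higher and 0 were lower at an unadjusted p under 0.05. One tumor carried much of this. NaCl tumor 1 was the lowest of the 6 tumors for 11 of the 14 genes and for 20 of the 35 members, and without it the median of all members was -0.03.

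The 3 chains of complement C1q, which macrophages secrete and which lie next to each other on chromosome 4 (GRCm38 chr4:136880129-136898803), kept nearly the same ratio in every tumor. C1qa stood at 269.6, 479 and 391 CPM in NaCl tumors 1 to 3 and at 429.7, 361 and 489 CPM in H89 tumors 1 to 3. The groups overlapped, and the log2 fold change was 0.10 (SE 0.19), next to 0.02 (SE 0.20) for C1qb and 0.02 (SE 0.18) for C1qc. The ratio of C1qc to C1qb stayed between 0.923 and 1.06 in all 6 tumors. That of C1qa to C1qb was slightly higher in every H89 tumor (1.13, 1.14 and 1.15 in increasing order) than in any NaCl tumor (1.05 to 1.11). Csf1r, the receptor on which macrophage survival depends, stood at 98.3, 198 and 196 CPM in NaCl and 151, 187 and 221 CPM in H89 tumors. Here NaCl tumor 1 was far below the other 5 tumors, which overlapped, and the log2 fold change was 0.11 (SE 0.25). Its annotated exons overlap those of Hmgxb3, so part of its counts could come from that gene. Adgre1, which encodes the F4/80 antigen, stood at 24.5, 47.0 and 51.7 CPM in NaCl and 37.9, 52.8 and 87.0 CPM in H89 tumors, and its log2 fold change of 0.45 (SE 0.32) rested on groups that overlapped and was 0.10 without H89 tumor 3 and 0.19 without NaCl tumor 1. The lysosomal protein gene Cd68 was nearly level at 119 to 143 CPM in NaCl and 125 to 137 CPM in H89 tumors, with a log2 fold change of -0.11 (SE 0.10).

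Cd84 was the exception among the identity genes. It encodes a SLAM-family receptor that binds itself on neighboring leukocytes and lies on chromosome 1 (GRCm38 chr1:171839697-171890718). Its level was 23.8, 25.0 and 25.3 CPM in NaCl tumors and 33.2, 41.0 and 44.3 CPM in H89 tumors. Every H89 tumor was above every NaCl tumor, and the NaCl tumors differed by little. The log2 fold change was 0.60 (SE 0.10), with an adjusted p of 0.0415 in edgeR's test with Benjamini-Hochberg adjustment and an exact permutation p of 0.1, the smallest that 3 tumors against 3 allow. The size of the difference held when single tumors were left out (0.54 to 0.69), but the edgeR adjusted p was then 0.0663 to 0.142, so the call was lost without any 1 of the 6 tumors. T cells, B cells, platelets and mast cells also express Cd84. Summed T cell genes were 16.1 to 34.4 CPM in NaCl and 31.7 to 82.5 CPM in H89 tumors. Of the 8 tested, 8 were positive and 5 were higher at an unadjusted p under 0.05, against 13.1% of all genes tested. Summed B cell genes were low and higher in every H89 tumor (2.28 to 3.54 CPM) than in any NaCl tumor (1.34 to 1.83 CPM). Mast cell and platelet genes ran mostly the other way, with 0 of 6 and 1 of 4 tested genes positive. Of 6 genes shared by all leukocytes, 5 were positive and 2 were higher at an unadjusted p under 0.05, against the same 13.1%. These were Ptprc, which encodes CD45 (log2 fold change 1.01), and Cd52 (0.97), named after their values were seen. Both were above in every H89 tumor, as were 20.5% of all genes tested. The part of these cells in the Cd84 difference was not tested.

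Ms4a7 and Aif1 were higher at an unadjusted p only. Ms4a7, a tetraspanning membrane protein gene of mature macrophages, stood at 21.0, 33.1 and 32.5 CPM in NaCl and 42.9, 37.5 and 46.1 CPM in H89 tumors. These groups did not overlap, and the log2 fold change was 0.48 (SE 0.17, edgeR unadjusted p = 0.0216, Benjamini-Hochberg adjusted p = 0.139). Aif1, which encodes the actin-binding protein IBA1, stood at 10.6, 20.0 and 15.2 CPM in NaCl and 28.8, 18.3 and 28.5 CPM in H89 tumors. H89 tumor 2 lay between NaCl tumors 2 and 3, so the groups overlapped, and the log2 fold change was 0.66 (SE 0.25, edgeR unadjusted p = 0.0312, Benjamini-Hochberg adjusted p = 0.163). Over all genes tested, the level was above every NaCl tumor in each H89 tumor for 20.5% and below for 10.0%. With CPM divided by the TMM factors, which was tried after the data had been seen, these shares were 15.2% and 15.5%. Among the members, Cd84 and Ms4a7 were above and Clec4n and Pf4 below on both scales, while Trem2 and Csf1 were above only with CPM over the total and overlapped with the TMM factors.

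The remaining identity genes passed neither threshold, and for all but Cd14 the SEs left the direction unclear. The adaptor chains Tyrobp and Fcer1g, through which many myeloid receptors signal, had values of 0.13 (SE 0.16) and 0.23 (SE 0.16). Mertk, a receptor for the uptake of dying cells, had 0.24 (SE 0.29), and Lyz2 had -0.15 (SE 0.17) at 881 to 1384 CPM in NaCl and 937 to 1277 CPM in H89 tumors. Lyz1, a near-identical paralog of Lyz2, made up 0.635% of the sum of both, so a split of reads between them could move Lyz2 little. Cd14, the coreceptor for bacterial lipopolysaccharide, had the lowest value of the group at -0.40 (SE 0.17, edgeR unadjusted p = 0.0517, Benjamini-Hochberg adjusted p = 0.203). It stood at 128, 106 and 113 CPM in NaCl and 68.7, 88.7 and 121 CPM in H89 tumors, and H89 tumor 3 lay among the NaCl tumors.

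The interferon-polarized genes had the highest median log2 fold change of the 8 role groups, at 0.73, with 3 of 3 values positive, 1 of 3 higher at an unadjusted p under 0.05 and 0 at the adjusted threshold. Fcgr1, the high-affinity Fc receptor for IgG and a textbook target of interferon-gamma, stood at 34.6, 54.9 and 37.2 CPM in NaCl and 74.1, 47.1 and 75.7 CPM in H89 tumors. H89 tumors 1 and 3 were above all NaCl tumors and H89 tumor 2 was not. Its log2 fold change was 0.57 (SE 0.22, edgeR unadjusted p = 0.0347, Benjamini-Hochberg adjusted p = 0.171). Fcgr4, an activating Fc receptor for IgG2 antibodies, followed the same tumors, at 24.7, 42.0 and 17.3 CPM in NaCl and 51.6, 29.6 and 73.6 CPM in H89 tumors. The groups overlapped through H89 tumor 2 and NaCl tumor 2, and the log2 fold change was 0.81 (SE 0.38, edgeR unadjusted p = 0.0634, Benjamini-Hochberg adjusted p = 0.225). Nos2, the inducible nitric oxide synthase, stood at 14.4, 5.84 and 5.92 CPM in NaCl and 12.2, 6.04 and 28.3 CPM in H89 tumors. A single H89 tumor was above the range of the NaCl tumors, and the log2 fold change of 0.73 (SE 0.56) was 0.02 without H89 tumor 3 and 1.33 without NaCl tumor 1. Summed T cell genes were 34.4, 20.3 and 16.1 CPM in NaCl tumors 1 to 3 and 54.4, 31.7 and 82.5 CPM in H89 tumors 1 to 3. Their order matched that of Fcgr4 within the H89 tumors but not within the NaCl tumors, and their part in these values was not tested.

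The 250 bases before the RefSeq start of Fcgr1 and Fcgr4 are shown because their levels followed the same tumors and interferon acts on Fcgr1 through a sequence close to its start. Both are printed 5′ to 3′ on the strand of the gene, from RefSeq for GRCm38.p6. For Fcgr1 (chr3:96293970-96294219, minus strand) the capitals mark a match to the gamma-activated sequence GAS at bases -109 to -101. For Fcgr4 (chr1:171018676-171018925, plus strand) they mark, in order, a match to the interferon-stimulated response element ISRE at bases -73 to -64 and a match to a site of the macrophage factor PU.1 at bases -24 to -17, both read on the opposite strand.
Fcgr1: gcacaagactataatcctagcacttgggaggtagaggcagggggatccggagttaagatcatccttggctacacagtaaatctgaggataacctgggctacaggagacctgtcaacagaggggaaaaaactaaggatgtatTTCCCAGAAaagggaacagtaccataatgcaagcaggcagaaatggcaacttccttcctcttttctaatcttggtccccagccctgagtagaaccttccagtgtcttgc
Fcgr4: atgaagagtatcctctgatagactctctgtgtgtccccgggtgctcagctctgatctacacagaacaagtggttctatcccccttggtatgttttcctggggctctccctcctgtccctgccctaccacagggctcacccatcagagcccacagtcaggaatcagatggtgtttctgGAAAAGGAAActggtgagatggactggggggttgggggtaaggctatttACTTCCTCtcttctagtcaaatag

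The letters searched were TTCNNNGAA for GAS, GAGGAAGT for PU.1 and TTTC, any 2 bases and TTTC for ISRE, on both strands, in windows of 300 bases from 250 before to 50 after the start. Of 27025 genes with a window, 9.55% held the GAS letters, 3.99% the ISRE letters and 3.69% the PU.1 letters. Of the 26 members with a window, 2 held GAS (Fcgr1 and Chil3), 3 held ISRE (Aif1, Fcgr4 and Spp1) and 5 held PU.1 (C1qc, Fcgr4, Retnla, Pf4 and Spp1). None of the matches marked above overlap, and a match says only that these letters are present. Spp1 and Fcgr4, which both held ISRE and PU.1 letters, had log2 fold changes of opposite sign.

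The other Fc gamma receptors lie beside Fcgr4 on chromosome 1. Fcgr2b, which carries the inhibitory signal, had a log2 fold change of 0.26 (SE 0.20), at 103 to 154 CPM in NaCl and 121 to 205 CPM in H89 tumors. Fcgr3, an activating receptor that shares its ligands, had -0.14 (SE 0.13), at 84.1 to 121 CPM and 91.6 to 106 CPM. The ratio of Fcgr4 to Fcgr2b, an activating to an inhibitory receptor, was 0.240, 0.280 and 0.112 in NaCl and 0.424, 0.145 and 0.394 in H89 tumors. Again H89 tumors 1 and 3 were above every NaCl tumor and H89 tumor 2 lay among them. Part of the counts of Fcgr2b could belong to Gm38204, whose annotated exons it overlaps.

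No alternatively activated gene passed either threshold. All 4 genes tested had positive log2 fold changes, with a median of 0.15, but Cd163 turned negative under quantile normalization and in limma, and Mrc1 in DESeq2. Arg1, arginase 1, stood at 171, 44.9 and 45.3 CPM in NaCl and 48.8, 104 and 147 CPM in H89 tumors. The highest tumor was a NaCl tumor, and the log2 fold change of 0.09 (SE 0.57) was 1.07 without NaCl tumor 1 and -0.26 without H89 tumor 3. Mrc1, the mannose receptor CD206, stood at 105, 201 and 240.4 CPM in NaCl and 139, 249.6 and 190.0 CPM in H89 tumors, with a log2 fold change of 0.01 (SE 0.30). Cd163, the hemoglobin scavenger receptor, stood at 6.23, 11.7 and 10.1 CPM in NaCl and 5.50, 21.2 and 7.18 CPM in H89 tumors. Here H89 tumor 2 was the highest of the 6, the other H89 tumors lay within or below the NaCl range, and the log2 fold change was 0.20 (SE 0.48). Retnla, the resistin-like protein FIZZ1, ranged from 0 to 2.82 CPM in NaCl and from 0.0646 to 4.16 CPM in H89 tumors, and at these levels its log2 fold change of 0.87 (SE 1.39) gave no direction.

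The ratio of Nos2 to Arg1, the enzymes that compete for arginine, was 0.0845, 0.130 and 0.131 in NaCl and 0.250, 0.0581 and 0.193 in H89 tumors. H89 tumors 1 and 3 had the highest ratios and H89 tumor 2 the lowest of the 6, so the groups overlapped. Both genes were among the most variable members, as the plots of single genes show.

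**Figure D3:**
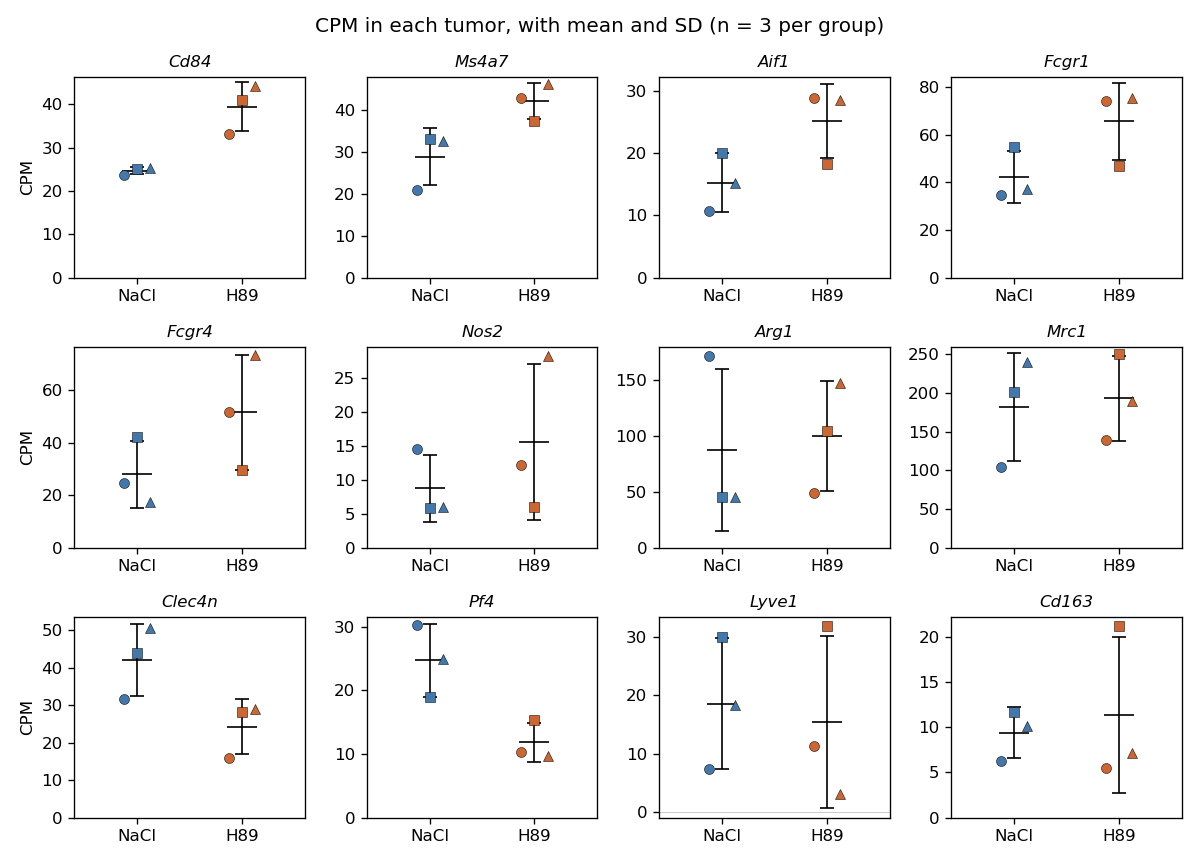
CPM (vertical axes, linear, one scale per gene) of 12 macrophage genes in NaCl tumors (blue) and H89 tumors (orange), with circles, squares and triangles for tumors 1, 2 and 3 of a group and black lines for the mean and SD of 3 tumors. Cd84 and Ms4a7 separate upward and Clec4n and Pf4 downward; in the panels of Fcgr1, Fcgr4 and Nos2 the square of H89 tumor 2 lies among the NaCl tumors, and in those of Lyve1 and Cd163 it is the highest point.

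Of the 2 scavenger and pattern receptors tested, Clec4n was lower and Msr1 was not. Clec4n encodes Dectin-2, a receptor for fungal mannans on macrophages and dendritic cells that signals through the Fcer1g chain, and lies on chromosome 6 (GRCm38 chr6:123229843-123247021). Its level was 31.7, 44.1 and 50.6 CPM in NaCl tumors and 15.8, 28.1 and 28.9 CPM in H89 tumors. Every H89 tumor was below every NaCl tumor. The log2 fold change was -0.87 (SE 0.23, edgeR unadjusted p = 0.00569, Benjamini-Hochberg adjusted p = 0.0856), which missed the threshold, and the exact permutation p was 0.1, the smallest possible. DESeq2 gave a Benjamini-Hochberg adjusted p of 0.00302. The sum of Clec4n with its neighbors and relatives Clec4d and Clec4e was 47.6 to 60.5 CPM in NaCl and 22.8 to 43.0 CPM in H89 tumors. Clec4n made up most of this sum, with means of 42.1 of 53.3 CPM in NaCl and 24.3 of 33.9 CPM in H89 tumors. The sum therefore gives no separate reading of Clec4d and Clec4e. Msr1, the class A scavenger receptor, had a log2 fold change of 0.27 (SE 0.19), at 86.2 to 121 CPM in NaCl and 102 to 180.5 CPM in H89 tumors, which was 0.04 without H89 tumor 3.

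All 4 tissue-resident genes had negative log2 fold changes, with a median of -0.73, but 1 of the 4 was lower at an unadjusted p under 0.05 and 0 at the adjusted threshold. That gene was Pf4, which encodes the chemokine CXCL4 (GRCm38 chr5:90772435-90773383). It stood at 30.3, 18.9 and 24.9 CPM in NaCl tumors and 10.3, 15.4 and 9.73 CPM in H89 tumors, with no overlap. The log2 fold change was -1.14 (SE 0.24, edgeR unadjusted p = 0.00136, Benjamini-Hochberg adjusted p = 0.0593), and the exact permutation p was 0.1, the smallest possible. DESeq2 gave a Benjamini-Hochberg adjusted p of 7.79e-05, and edgeR without the filter on low values gave 0.0412. Platelets hold much Pf4 transcript. The summed level of 5 other platelet genes was 11.9 to 17.0 CPM in NaCl and 12.1 to 13.6 CPM in H89 tumors. Of the 4 tested, 3 were negative and 1 was lower at an unadjusted p under 0.05, against 11.9% of all genes tested. That gene was Ppbp, a platelet chemokine next to Pf4 that was looked up after its value was seen, with a log2 fold change of -1.02. Gp9, too low to be tested and also looked up afterwards, was at 0.296 to 0.430 CPM in NaCl and 0.129 to 0.282 CPM in H89 tumors. The rest of these platelet genes overlapped between the groups, with log2 fold changes of -0.07 for Itga2b, 0.04 for Gp1bb and -0.47 for Gp1ba. The part of platelets in the Pf4 difference was not tested.

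The other resident genes varied mainly between tumors of the same group. Folr2, a folate receptor of perivascular macrophages, had a log2 fold change of -0.22 (SE 0.20), and its annotated exons overlap those of Gm10602. Lyve1, a hyaluronan receptor of perivascular macrophages and lymphatic vessels, stood at 7.43, 29.9 and 18.3 CPM in NaCl and 11.3, 31.8 and 3.07 CPM in H89 tumors. Its highest and lowest tumors were both H89 tumors, and the log2 fold change was -0.32 (SE 0.75). The lymphatic endothelial genes summed to 2.42 to 6.37 CPM over the 6 tumors. Nearly all of this was Flt4 (2.24 to 6.20 CPM), a receptor gene that other endothelium also expresses, with a log2 fold change of -0.42, while Ccl21a was at 0 and the defining gene Prox1 was under 0.5 CPM on average. The part of lymphatic vessels in the Lyve1 level was not tested. Vsig4, the complement receptor CRIg, stood at 0.206, 2.96 and 1.76 CPM in NaCl and 0.245, 1.66 and 0.259 CPM in H89 tumors, with a log2 fold change of -1.22 (SE 0.94). It was under 0.5 CPM in 1 NaCl tumor and 2 H89 tumors, and the groups overlapped. Without NaCl tumor 2 this value was -0.50 and without H89 tumor 2 it was -2.73.

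The lipid-associated genes had a median log2 fold change of -0.39, with 1 positive and 3 negative values, and 1 of the 4 was lower at an unadjusted p under 0.05. Spp1, the secreted matrix protein osteopontin, stood at 4029.7, 2929 and 4292 CPM in NaCl and 2183, 2951 and 3199 CPM in H89 tumors. NaCl tumor 2 lay among the H89 tumors. The log2 fold change was -0.51 (SE 0.18, edgeR unadjusted p = 0.0202, Benjamini-Hochberg adjusted p = 0.134), and DESeq2 gave a Benjamini-Hochberg adjusted p of 0.0295. Carcinoma cells and fibroblasts also make osteopontin, and their share in these values was not tested.

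Apoe, the lipid carrier, stood at 247, 595 and 667 CPM in NaCl and 329, 463 and 476 CPM in H89 tumors. NaCl tumor 1 was the lowest and NaCl tumors 2 and 3 the highest of the 6. The log2 fold change was -0.32 (SE 0.32), and it was -0.64 without NaCl tumor 1, -0.07 without NaCl tumor 3 and -0.04 under quantile normalization. Trem2, a lipid receptor that signals through TYROBP, was almost constant in H89 tumors, at 43.6, 44.1 and 43.6 CPM against 31.9, 43.4 and 37.5 CPM in NaCl tumors, with a log2 fold change of 0.15 (SE 0.11). Gpnmb, a lysosomal glycoprotein, had -0.46 (SE 0.38), and its highest tumor was NaCl tumor 1 at 87.7 CPM.

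Both ligands of CSF1R were present at steady levels. Csf1 stood at 269.7, 316 and 288 CPM in NaCl and 332, 319.6 and 326 CPM in H89 tumors, a log2 fold change of 0.09 (SE 0.09). Il34, the second ligand, stood at 41.8, 39.8 and 40.9 CPM in NaCl and 35.4, 42.2 and 44.0 CPM in H89 tumors, a log2 fold change of -0.08 (SE 0.09). These SEs were the smallest among the members. The exons annotated for Il34 overlap those of 2 further genes, Gm15894 and Gm15895, and those of Spp1 overlap Gm42793.

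Tumors with more macrophage RNA would show more of each macrophage gene, so every role group was also set against the pan-macrophage genes of the same tumor. This relative level is the mean log2(CPM + 0.5) of a group minus that of the 14 pan-macrophage genes, and it is given without a test. The pan-macrophage mean itself was 0.25 higher in H89 tumors, with overlapping groups, which lowers every relative level of the H89 tumors by as much. On this scale 2.24% of all genes tested were above and 13.7% below in every H89 tumor. For the interferon-polarized genes it was -1.66, -2.19 and -2.64 in NaCl and -1.52, -2.30 and -1.27 in H89 tumors, a difference of 0.47 with overlapping groups. The alternatively activated genes differed by 0.08, again with overlap. For the scavenger and pattern receptors every H89 tumor was below every NaCl tumor, with a difference of -0.49 that came from Clec4n, since Msr1, the other of these 2 genes, had 0.07 with overlap. The lipid-associated genes were also below in every H89 tumor as a group, with -0.43. Each of these 4 genes overlapped when taken alone (Spp1 -0.68, Gpnmb -0.61, Apoe -0.40 and Trem2 -0.03). The tissue-resident genes differed by -0.88, but H89 tumor 2 at -2.94 lay within the NaCl range of -3.22 to -2.79. The other Fc gamma receptors differed by -0.12 and the CSF1R ligands by -0.18.

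Among single genes on this relative scale, Ms4a7 was above in every H89 tumor (0.31), while Cd84 was not (0.40 with overlap). NaCl tumor 1, which had the lowest pan-macrophage mean, reached -1.62 for Cd84, within the H89 range of -1.64 to -1.32. Pf4 (-1.29), Clec4n (-1.06), Cd14 (-0.60), Folr2 (-0.41), Lyz2 (-0.32), Fcgr3 (-0.31) and C1qc (-0.14) were below in every H89 tumor, 7 of 35 members in all. For Folr2, Lyz2, Fcgr3 and C1qc the groups overlapped in CPM. Ms4a7, Cd84, Cd14, Lyz2 and C1qc are themselves among the 14 reference genes.

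**Figure D4:**
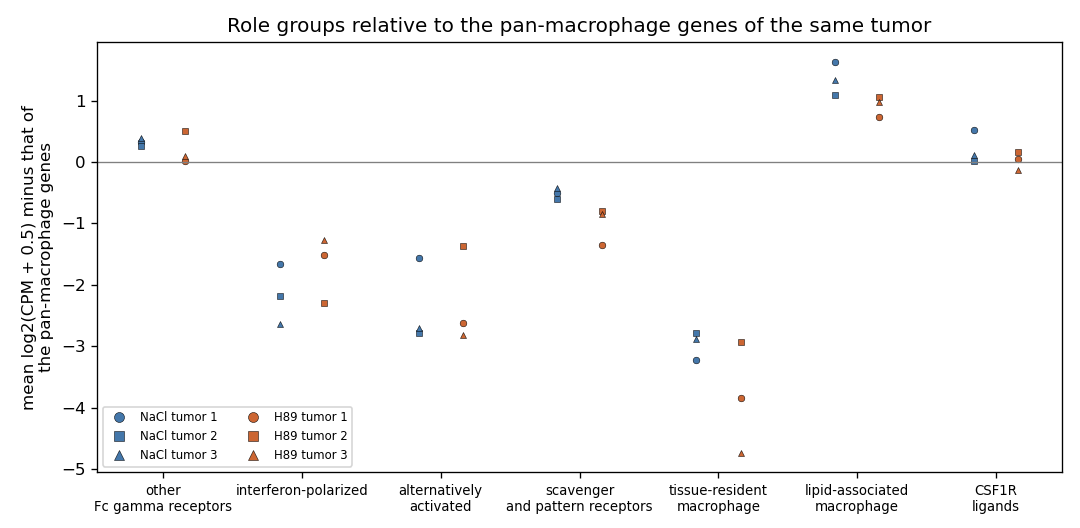
Mean log2(CPM + 0.5) of 7 role groups minus that of the 14 pan-macrophage genes in the same tumor (vertical axis), for NaCl tumors (blue, left) and H89 tumors (orange, right), with 1 marker per tumor. The scavenger and pattern receptors (2 genes, of which Clec4n carries the difference) and the lipid-associated genes lie lower in every H89 tumor. Each of the 4 lipid-associated genes overlaps when taken alone. H89 tumor 2 stands away from the other H89 tumors in the interferon-polarized and alternatively activated groups. In the tissue-resident group the H89 tumors are widely spread.

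Further genes of the same programs, none of them among the 37, were described by counts in the same way. Over all genes tested, 13.1% were higher and 11.9% were lower at an unadjusted p under 0.05. The level was above every NaCl tumor in each H89 tumor for 20.5% of all genes tested and below for 10.0%. Of 24 interferon-gamma-induced macrophage genes, 21 were tested, 7 were higher and 0 were lower at an unadjusted p under 0.05, 0 passed the adjusted threshold, and the median log2 fold change was 0.86. The 4 genes with the smallest p were above every NaCl tumor in each H89 tumor, except that Ccl5 overlapped with the TMM factors. They were Irf1 (0.92, SE 0.28), an interferon-induced transcription factor, Ciita (1.87, SE 0.59), the master regulator of MHC class II genes, Slamf7 (1.50, SE 0.48), a receptor of the same family as Cd84, and Ccl5 (0.86, SE 0.32), a T cell-attracting chemokine. Slamf7 was at 0.251 to 0.482 CPM in NaCl and 0.532 to 1.71 CPM in H89 tumors, which is few counts. It passed the filter on low values through the H89 tumors. Irf1 stood at 112, 106 and 55.8 CPM in NaCl and 182, 134 and 228 CPM in H89 tumors, with the order of Fcgr4 within the H89 tumors but not within the NaCl tumors. Many cell types besides macrophages express Irf1 and Ccl5. The count of 7 was 13 without NaCl tumor 1, 11 without H89 tumor 2, and 3 without NaCl tumor 3, H89 tumor 1 or H89 tumor 3.

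Of 20 interleukin-4-induced genes, 19 were tested, 0 passed the adjusted threshold, and the median log2 fold change was 0.26. At an unadjusted p under 0.05, 4 were higher and 3 were lower, against 13.1% and 11.9% of all genes tested. The transcription factor gene Klf4 had -0.34 (SE 0.09), at 278 to 328 CPM in NaCl and 238 to 272 CPM in H89 tumors. The chemokine gene Ccl24 had -0.82 (SE 0.26), while Il10, which encodes an anti-inflammatory cytokine, had 1.23 (SE 0.40) at under 1.2 CPM in each tumor. Ear2, an eosinophil-associated ribonuclease gene, had 2.79 (SE 0.83), at 0.148 CPM or less in NaCl and at most 1.72 CPM in H89 tumors, which is few counts. Il10 and Ear2 were under 0.5 CPM in every NaCl tumor and passed the filter through the H89 tumors. The count of 4 was 1 under quantile normalization and 2 among genes with a mean of at least 5 CPM, where the count of 3 was 1. It was 9 without NaCl tumor 1 and 2 without H89 tumor 1, and the 3 lower genes were 2 without NaCl tumor 1 or 3 or without H89 tumor 1.

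Of 24 other macrophage genes, all were tested, 0 passed the adjusted threshold, and the median was 0.25. At an unadjusted p under 0.05, 6 were higher and 2 were lower, against 13.1% and 11.9% of all genes tested. The 4 with the smallest p were the lysosomal protease gene Ctss (0.70, SE 0.15), the monocyte chemokine receptor gene Ccr2 (0.93, SE 0.21) and the C-type lectin genes Clec4a3 (0.99, SE 0.26) and Clec4a1 (0.65, SE 0.18). Ccr2 stood at 24.8, 39.5 and 23.4 CPM in NaCl and 48.7, 54.3 and 72.1 CPM in H89 tumors, without overlap. T cells also express Ccr2. The count of 6 was 10 without H89 tumor 1, and the 2 lower genes were 1 without any 1 NaCl tumor or H89 tumor 2. Of the 5 monocyte genes tested, 4 were positive and 1, Ccr2 itself, was higher at an unadjusted p under 0.05. Summed monocyte genes overlapped, at 182 to 239 CPM in NaCl and 206 to 252 CPM in H89 tumors.

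Of 18 genes that signal downstream of or beside CSF1R, TYROBP and FCER1G, 17 were tested, and the median was 0.29. At an unadjusted p under 0.05, 5 were higher and 0 were lower, against 13.1% and 11.9% of all genes tested. Csf2ra, the alpha chain of the receptor for the growth factor GM-CSF, was the 1 gene of the 4 lists that rose at the adjusted threshold. It stood at 23.4, 31.3 and 22.0 CPM in NaCl and 43.9, 44.4 and 44.3 CPM in H89 tumors, with a log2 fold change of 0.72 (SE 0.13, edgeR with Benjamini-Hochberg adjusted p = 0.0481). The H89 tumors were nearly equal and all above the NaCl tumors. With 1 tumor left out its edgeR Benjamini-Hochberg adjusted p was 0.0763 to 0.145, so this call was lost without any 1 of the 6. The count of 5 was 1 without H89 tumor 3. The next 3 by p were the phosphatase gene Ptpn6 (0.47, SE 0.15), the exchange factor gene Vav1 (0.55, SE 0.18) and the adaptor gene Pik3ap1 (0.86, SE 0.30). These 3 also act in lymphocytes, and the leukocyte genes, whose counts stand beside Cd84 above, summed to 568 to 649.7 CPM in NaCl and 603 to 928 CPM in H89 tumors.

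**Figure D5:**
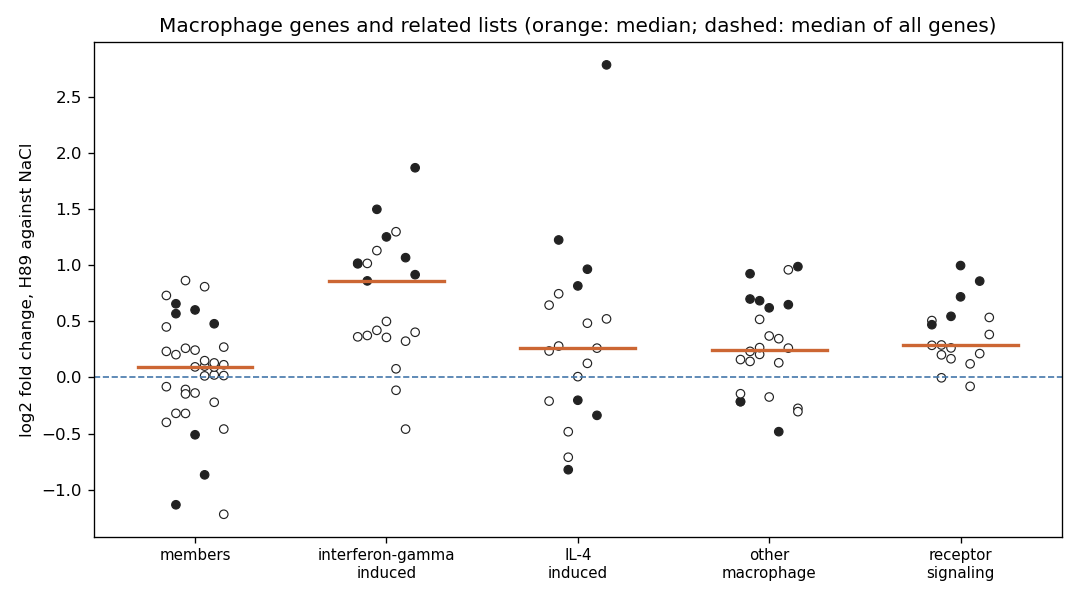
Log2 fold change of H89 against NaCl tumors (vertical axis) for the 35 macrophage genes tested and for 4 lists of related genes, 1 point per gene, filled at an unadjusted p under 0.05, with the median of each list in orange and that of all 13118 genes tested (0.004) as a dashed line. The medians are 0.09, 0.86, 0.26, 0.25 and 0.29 from left to right, and points lie on both sides of 0 in every list.

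Other cell types that share members were also read. The neutrophil genes summed to 32.4 to 44.7 CPM in NaCl and 35.1 to 55.1 CPM in H89 tumors, with Ly6g at 0 throughout and 2 of 6 tested genes positive. At an unadjusted p under 0.05, 1 of the 6 was higher and 1 was lower, against 13.1% and 11.9% of all genes tested. These were Csf3r (log2 fold change 0.90) and Mmp8 (-1.29, at 0.501 to 2.13 CPM), both without overlap and named after their values were seen. Over all genes tested, 20.5% were above and 10.0% below in every H89 tumor. The conventional dendritic cell genes summed to 373 to 469 CPM in NaCl and 330 to 380 CPM in H89 tumors, but Fscn1, an actin-bundling protein gene that other cells also express, made up 361 to 451 CPM and 305 to 353 CPM of these sums. Without Fscn1, which was set aside after its values were seen, the list summed to 12.5 to 18.1 CPM in NaCl and 20.7 to 27.4 CPM in H89 tumors, without overlap. Of the 7 dendritic cell genes tested, 6 were positive. At an unadjusted p under 0.05, 4 were higher and 1, Fscn1, was lower, against the same 13.1% and 11.9% of all genes tested. Mast cell genes summed to 206 CPM in NaCl tumor 1 and to 77.3 to 140.2 CPM in the other 5 tumors. Endothelial genes overlapped, at 90.8 to 156 CPM in NaCl and 79.5 to 126 CPM in H89 tumors.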

How the data were processed

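Total RNA of 6 frozen CT26 tumors (3 NaCl, 3 H89) was sequenced on the BGISEQ-500 platform. The authors deposited 1 table of estimated counts for 23557 genes, not scaled for depth or length, since tumor sums differed (27067349 to 31958793), and 58.6 to 61.4% of values above 0 were within 0.01 of a whole number. The submitters' processing notes name kallisto, DESeq2 and GRCm38, without versions. A record of the columns names 214 genes, and the other 23343 were read in the same way. Counts were rounded, and genes with a mean of at least 0.5 CPM (13118) entered edgeR 4.0.16 under R 4.3.3 (TMM, glmQLFit, glmQLFTest, no covariate, Benjamini-Hochberg adjustment over all genes). Printed CPM use tumor totals, whereas fold changes use TMM factors (0.956 to 1.06). SEs are the log2 fold change over the square root of F. Exact permutation tests were two-sided over 10 splits. The alternatives were other filters and normalizations, limma 3.58.1, DESeq2 1.42.0, a replicate block and each tumor left out. The edgeR step was tested on simulated data. Positions, lengths and exon overlaps are those of GENCODE M21 (GRCm38) by symbol. Of the 37 members, 13 had estimated counts off a whole number by over 0.01 in some tumor, as estimates that divide reads between genes can be.

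The members, gene lists and tests were chosen with earlier results of these data known. All 37 members were named, as were, per related list, genes under an adjusted p of 0.05 or else the 4 with the smallest p. The study used 3 mice per group, and p-values measure the spread between their tumors. No 2 tumors agreed within sampling noise.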

Additional observations from a re-analysis of the deposited data

How the results depend on the processing

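Of the 35 members tested, 23 kept the sign of their log2 fold change under every alternative and with each tumor left out. With 1 tumor left out, members higher at an unadjusted p numbered 1 to 6 (4 with all tumors) and members lower 2 to 5 (3 with all tumors), the count of rises at the adjusted threshold was 0 to 0 and all genes together gave 0 to 12 calls against 208. Members that rose at the adjusted threshold also numbered 0 under quantile normalization (Cd84 adjusted p 0.0592 in limma). Members that fell at that threshold numbered 1 without the filter on low values and 3 with DESeq2, which called 1392 genes in all. With CPM divided by TMM factors, members above in every H89 tumor numbered 2 in place of 4.

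The labels do not say whether equal replicate numbers pair NaCl and H89 tumors. Correlations of same-numbered deviations (0.117, 0.0327 and -0.0429) lay within those of the other pairs (-0.311 to 0.296) and cannot settle it. With the replicate number as a block, 0 members rose (Cd84 edgeR adjusted p 0.0640) and 0 genes in all were called.

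Signs turned, with 1 tumor left out, for Csf1r (-0.14 to 0.26), Mertk (-0.029 to 0.52), C1qa (-0.083 to 0.29), C1qb (-0.17 to 0.20), C1qc (-0.16 to 0.22), Lyz2 (-0.28 to 0.022), Arg1 (-0.26 to 1.07), Retnla (-0.38 to 4.60), Mrc1 (-0.25 to 0.27), Cd163 (-0.63 to 0.52), Lyve1 (-1.40 to 0.19) and Gpnmb (-0.86 to 0.029). They also turned for Lyz2 (0.077) and Cd163 (-0.10) under quantile normalization, Cd163 in limma on log2 CPM (-0.0018) and Mrc1 in DESeq2 (-0.0017). The cause was not tested. With 3 tumors per group, even the Pf4 difference of -1.14 (SE 0.24) missed the adjusted threshold in edgeR. Differences of fewer SEs could therefore go undetected. Below 1 CPM (Retnla, Vsig4, Chil3) a tumor holds few counts.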
